A study of Mus musculus with 2 samples.

Results

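The granzyme and perforin genes described here are Gzma, Gzmb, Gzmc, Gzmk and Gzmm, which encode granzymes A, B, C, K and M, together with Prf1, which encodes perforin, and Nkg7, which encodes a membrane protein of the killer granule. They were taken by name and no measured value enters that rule, although the set was proposed with earlier results of these data known. All 7 were found among the 13528 genes of the filtered RNA count table. Each was followed across the deposited cell types, the deposited clusters and both genotypes.

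Cytotoxic lymphocytes kill by releasing granules at the contact with a target cell. Perforin makes pores in the target membrane and granzymes, which are serine proteases, enter through them: granzyme B cuts after aspartate and triggers caspases, granzyme A is a trypsin-like enzyme that also cleaves substrates outside the apoptotic pathway, granzyme K shares that specificity, granzyme M cuts after methionine or leucine, and granzyme C is a mouse enzyme of the granzyme B gene cluster. Cytotoxic CD8 T cells and natural killer (NK) cells are the main sources, and the liver holds many of both.

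The data were single-cell RNA counts and counts of 49 surface antibodies from CD45+ immune cells of mouse liver. The TG group was the dnTGFβRII mouse, a model of primary biliary cholangitis in which a dominant negative human TGF-β receptor II is expressed from the mouse CD4 promoter, so the transgene acts in T cells. The WT group was C57BL/6. Both were labelled as 10 weeks old, and the methods of the study name a younger age. Each genotype was 1 of the mouse groups pooled with a tag in a sequencing library: TG shared its library with IFN-γ ARE-Del-/- mice and WT shared the other library with p40-/-IL-2Rα-/- mice. No replicate of a genotype was available, genotype and library cannot be told apart, and no difference between TG and WT could be tested. Intervals below are 95% and cover counting error of unique molecular identifiers (UMIs) only.

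The table held 4647 TG cells with 18498477 UMIs (median 3298 per cell) and 7282 WT cells with 22216379 UMIs (median 2654). Of the cell barcodes named TG or WT, 36 occurred in both libraries. Scrublet, a doublet caller, marked 0.839% of TG and 3.31% of WT cells, while a joint B and T cell signature marked 7.38% and 3.58%, the opposite order. Levels are counts per 1000000 UMIs of a summed cell type or cluster (CPM). Shares of cells with a UMI were read after each cell was thinned to 1000 UMIs, since depth differed between the libraries.

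Some deposited names went against their markers, which bears on the values below. The cells named NK were clusters 3, 8 and 11. In TG, Cd3e, a subunit of the T cell receptor complex that NK cells lack, stood at 1608 CPM in cluster 3 and 1401 CPM in cluster 11, against 122 and 130 CPM in WT. At 1000 UMIs per cell a Cd3d, Cd3e or Cd3g UMI was found in 85.6% of TG and 51.0% of WT cells of cluster 3, and in 88.6% and 13.6% of cluster 11. Cluster 8 held such a UMI in 15.0% of TG and 10.8% of WT cells, so the main results for the NK-named class are also given for cluster 8 alone. In cluster 3 the T cell receptor gene Trac was 1143 CPM in TG and 245 CPM in WT, and Trbc2 was 1352 and 1120 CPM. Ncr1, an NK marker, was 506 and 961 CPM there. WT cells of cluster 3 are therefore not called T cells from a Cd3 UMI alone, and its TG and WT values set unlike cells side by side. The cells named CD8αα T were cluster 2, where 20 of 410 TG and 82 of 194 WT cells carried a UMI of Trdc, a γδ T cell receptor gene. Cluster 17, named mature B, carried T cell transcripts at 3416 CPM in TG against 4284 CPM in WT. It was 29 of 1068 TG and 155 of 1494 WT cells of that class. Cluster 1 is therefore given as the B cell background for the members, beside the whole class. The CD8αβ class was made up differently in the genotypes: cluster 4, where Gzma was lowest, was 145 of 1020 TG and 363 of 819 WT cells, cluster 7 was 319 and 132 cells and cluster 12 was 249 and 73 cells. The CD4 class differed likewise: cluster 6 was 58 of 238 TG and 397 of 734 WT cells, cluster 9 was 132 and 272 cells and cluster 21 was 48 and 65 cells. In the NK-named class cluster 3 was 263 of 759 TG and 306 of 615 WT cells, cluster 8 was 153 and 287 and cluster 11 was 343 and 22. Class values of CD8αβ T, CD4 T, NK-named and mature B cells hold these differences in makeup.

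The 7 genes lie at 5 places in the mouse genome (GRCm38). Gzma (chr13:113093825-113100981) and Gzmk (chr13:113171608-113225908) are neighbours on the minus strand with 70626 bases between them. Gzmb (chr14:56258838-56262260) and Gzmc (chr14:56231441-56234656) are also on the minus strand, 24181 bases apart. Gzmm (chr10:79689020-79695261), Prf1 (chr10:61297833-61304680) and Nkg7 (chr7:43437073-43438249) are on the plus strand. The 250 bases upstream of the RefSeq start are shown for the granzymes whose levels set the comparisons apart, the Gzma and Gzmk pair, Gzmb and Gzmm, read in the direction of transcription with motif matches in capitals. None of the 4 windows overlaps an annotated exon, and the Gzmk window lies within the annotated span of Gzmk because a longer transcript starts upstream.
Gzma chr13:113100982-113101231 (-): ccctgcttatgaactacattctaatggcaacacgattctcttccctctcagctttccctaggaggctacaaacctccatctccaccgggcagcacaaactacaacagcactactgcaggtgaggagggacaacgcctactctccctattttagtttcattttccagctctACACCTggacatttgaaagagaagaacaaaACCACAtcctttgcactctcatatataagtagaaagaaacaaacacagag
Gzmk chr13:113180966-113181215 (-): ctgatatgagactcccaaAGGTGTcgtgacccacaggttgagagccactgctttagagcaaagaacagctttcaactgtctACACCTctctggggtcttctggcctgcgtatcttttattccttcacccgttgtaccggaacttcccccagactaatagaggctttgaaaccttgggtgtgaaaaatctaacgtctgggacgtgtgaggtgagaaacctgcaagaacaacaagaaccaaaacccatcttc
Gzmb chr14:56262335-56262584 (-): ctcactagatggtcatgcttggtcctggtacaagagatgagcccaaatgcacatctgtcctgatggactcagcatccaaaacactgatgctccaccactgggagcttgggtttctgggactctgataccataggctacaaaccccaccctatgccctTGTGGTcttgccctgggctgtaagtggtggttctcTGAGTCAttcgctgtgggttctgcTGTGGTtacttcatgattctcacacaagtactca
Gzmm chr10:79688770-79689019 (+): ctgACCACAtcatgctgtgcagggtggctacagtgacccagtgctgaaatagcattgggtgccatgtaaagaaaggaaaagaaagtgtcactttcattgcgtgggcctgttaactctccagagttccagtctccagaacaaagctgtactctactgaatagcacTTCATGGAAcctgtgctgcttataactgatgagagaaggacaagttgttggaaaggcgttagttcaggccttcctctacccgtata
The motifs searched on both strands of the 300-base promoters were a T-box motif (AGGTGT), a RUNX motif (TGTGGT), an AP-1 motif (TGANTCA) and a STAT motif (TTCNNNGAA). They were held by 13.7%, 16.8%, 7.81% and 8.30% of 32851 mouse promoters. The T-box letters occurred in the promoters of 5 of the 7 genes, RUNX in 6, STAT in 3 and AP-1 in that of Gzmb only. The Gzma window has T-box at -80 and RUNX at -50 from the start, Gzmk has T-box at -232 and -169, Gzmb has RUNX at -93 and -34 with AP-1 at -58, and Gzmm has RUNX at -247 and STAT at -86. These matches are letters in a window, not measured binding.

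Over all cells, 6 of the 7 genes were higher in TG and Gzmc was higher in WT. Gzma stood at 3730 CPM in TG against 883 CPM in WT, a 4.22-fold difference. Gzmm stood at 47.8 and 6.53 CPM, 7.32-fold. Gzmb (998 and 529 CPM), Prf1 (148 and 88.7 CPM), Gzmk (35.5 and 22.3 CPM) and Nkg7 (1154 and 820 CPM) differed by less than 2-fold. Gzmc stood at 2.38 CPM in TG against 10.4 CPM in WT, 4.35-fold higher in WT. Killer cell types made up different shares of the libraries, so each TG level was also recomputed at the cell type shares of WT. These are shares of UMIs, not of cells. The log2 ratio then went from 2.08 to 1.25 for Gzma, from 2.87 to 1.87 for Gzmm, from 0.92 to 0.32 for Gzmb and from 0.67 to 0.20 for Gzmk. For Prf1 it went from 0.74 to 0.08 and for Nkg7 from 0.49 to 0.08, and for Gzmc it stayed negative, at 0.189-fold.

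Within cell types, the number of genes that differed by 2-fold or more is read beside the same share over all genes with at least 10 UMIs. In CD8αβ T cells 4 of 7 members passed 2-fold (3 higher and 1 lower in TG), where 9.88% of 11206 genes did. For CD8αα T cells it was 3 of 6 against 12.0%, in NK-named cells 3 of 7 against 11.3%, in NKT cells 3 of 7 against 10.1% and in CD4 T cells 2 of 6 against 12.5%. The NKT count holds Gzmm, with 2 and 19 UMIs and an interval that held 0. With the mature B level subtracted the count was 1, but members below that level in a genotype are then left out. All 3 NKT members (Gzma, Gzmk and Gzmm) were left out that way, so the 1 is another member. Both the NKT and CD4 counts hold Gzma, whose share of cells there is set beside that of B cells below. In γδ T cells 4 of 5 passed, all lower in TG, beside 29.4% of genes, with only 17 TG cells. One of them, Prf1, rested on 1 UMI in TG and 18 in WT, with an interval that held 0 (-6.46 to 1.59). The count was 2 without Scrublet doublets, without cells of a joint B and T cell signature, after thinning or with a minimum of 50 UMIs, and 1 with the mature B cell level subtracted. The 4 also hold Gzmk, counted through a pseudocount of 0.5 UMIs with 0 UMIs in TG and 18 in WT, where 3 UMIs in TG would be 48.2 CPM and the WT level was 33.9 CPM, so no fold is given. Without the dividing cluster 7 the CD8αβ count was 2, and in cluster 8 alone the NK count was 1.

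**Figure D1:**
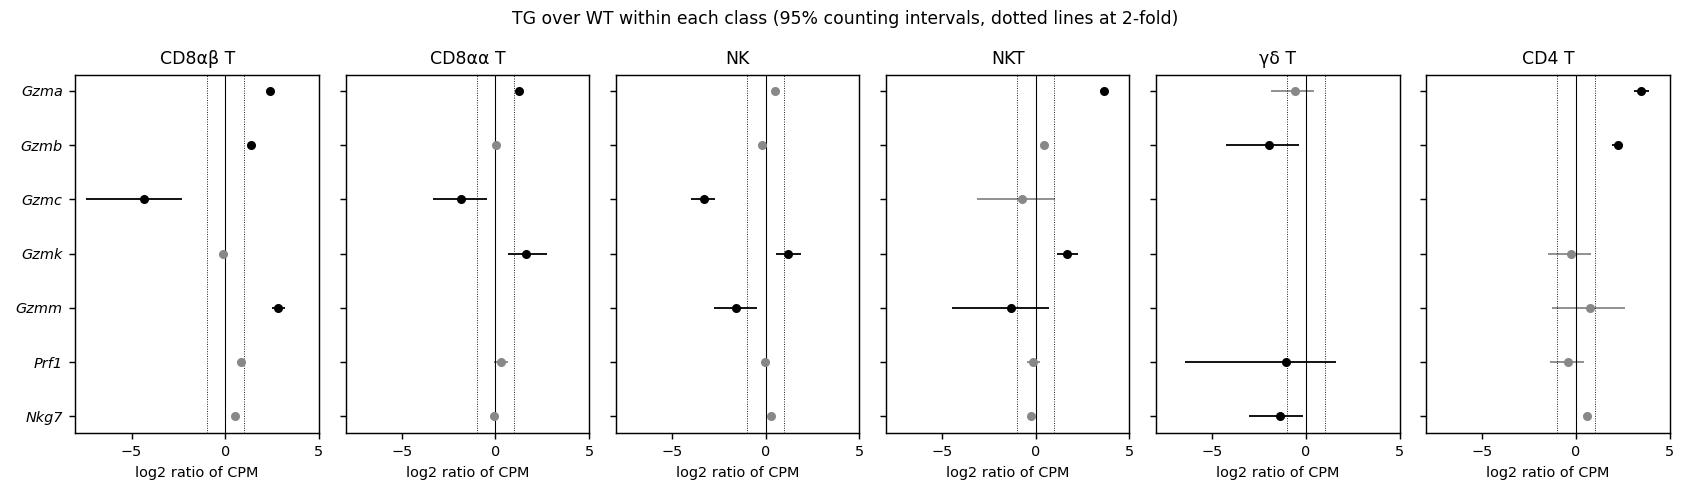
Log2 ratio of CPM, TG over WT, of each member in each killer cell type; points are ratios (black past 2-fold, grey below), bars are 95% exact intervals of counting error and dotted lines mark 2-fold. Gzma lies above 0 in every type but γδ T, with 5.18-fold in CD8αβ T cells, while Gzmm lies above 0 in CD8αβ and below 0 in NK-named cells.

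Granzyme A gave the largest part of the member UMIs. Its level in CD8αβ T cells was 5266 CPM (interval 5205 to 5328, 1020 cells) in TG and 1017 CPM (981 to 1053, 819 cells) in WT. The log2 ratio was 2.37 (2.32 to 2.43), and 1.66 without the dividing cluster 7. Gzma was also higher in TG in CD8αα T cells, at 8064 and 3316 CPM, and in NK-named cells, at 11594 and 8249 CPM. Among CD8αβ, CD8αα and NK-named cells the order was the same in both genotypes, NK-named above CD8αα above CD8αβ. The intervals of neighbours in that order did not overlap. CD8αβ T cells held 40.5% of all Gzma UMIs in TG and 15.9% in WT.

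Inside the CD8αβ class the high Gzma level sat in few clusters. Cluster 7, which carried dividing-cell markers and the lowest CD8 markers of the class, stood at 8303 CPM in TG against 1376 CPM in WT. Cluster 12 stood at 9724 and 1188 CPM. Clusters 4, 13 and 18 stood between 105 and 263 CPM in TG, near the 157 CPM of B cells in cluster 1. Cluster 23 was at 5871 and 5233 CPM, with 15 TG and 76 WT cells, so this small cluster was at a similar level in both. It held 276 of the 27924 Gzma UMIs of the class in TG but 1495 of 3116 in WT, so the WT class level rests largely on it. In cluster 8, the NK-named cluster with few Cd3 UMIs, Gzma was 13685 CPM in TG against 9909 CPM in WT (log2 ratio 0.47). In cluster 3 it was 6202 and 6436 CPM, and in cluster 11 it was 14906 and 14882 CPM, with only 22 WT cells. Without the Trdc cells the CD8αα levels were 8112 and 3832 CPM.

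Gzma UMIs were also found in cell types not known as its source, and at higher levels in TG. B cells of cluster 1 stood at 157 CPM in TG against 25.8 CPM in WT, and macrophages of cluster 15 at 1042 and 35.3 CPM. In cluster 15 the summed T cell markers were also higher in TG, at 1008 and 546 CPM, as were NK markers, at 373 and 67.7 CPM, and 3 of its TG cells held 44.5% of their Gzma UMIs. Their part in the Gzma level was not tested. All 7 non-killer clusters with enough cells had an interval above 0. They include cluster 17, with its T cell transcripts, where Gzma was 5088 and 829 CPM. Outside them, neutrophils stood at 146 and 131 CPM and cells named other at 188 and 214 CPM, with intervals that overlapped. Basophils held 12 TG and 0 WT UMIs. The share of mature B cells with a Gzma UMI was 15.6% in TG and 3.68% in WT (35.0% and 6.49% before thinning; medians of 2923 and 2044 UMIs per cell), and 14.2% and 2.18% in cluster 1 alone. In CD8αβ T cells these shares were 51.5% and 12.5% (71.5% and 18.8% before thinning; medians of 4557 and 2996 UMIs), in CD8αα T cells 79.8% and 47.9%, and in NK-named cells 93.7% and 80.0%, all above the B cell share.

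In NKT and CD4 T cells Gzma was found in few more cells than in B cells. Levels were 504 and 40.6 CPM in NKT cells and 363 and 32.4 CPM in CD4 T cells, ratios of 12.4-fold and 11.2-fold. The shares of cells were 18.8% (15.3% to 22.8%) and 2.51% in NKT and 18.1% (13.4% to 23.6%) and 2.73% in CD4 T cells. Cluster 1 B cells had 14.2% (12.1% to 16.5%) and 2.18%, and the intervals overlapped. The TG levels stood above the 157 CPM of those B cells, and NKT cluster 20, with 23 TG cells, stood at 2032 CPM against 219 CPM. The part of free RNA in these ratios was not tested. In TG NKT cells 3 cells held 30.3% of the Gzma UMIs.

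**Figure D2:**
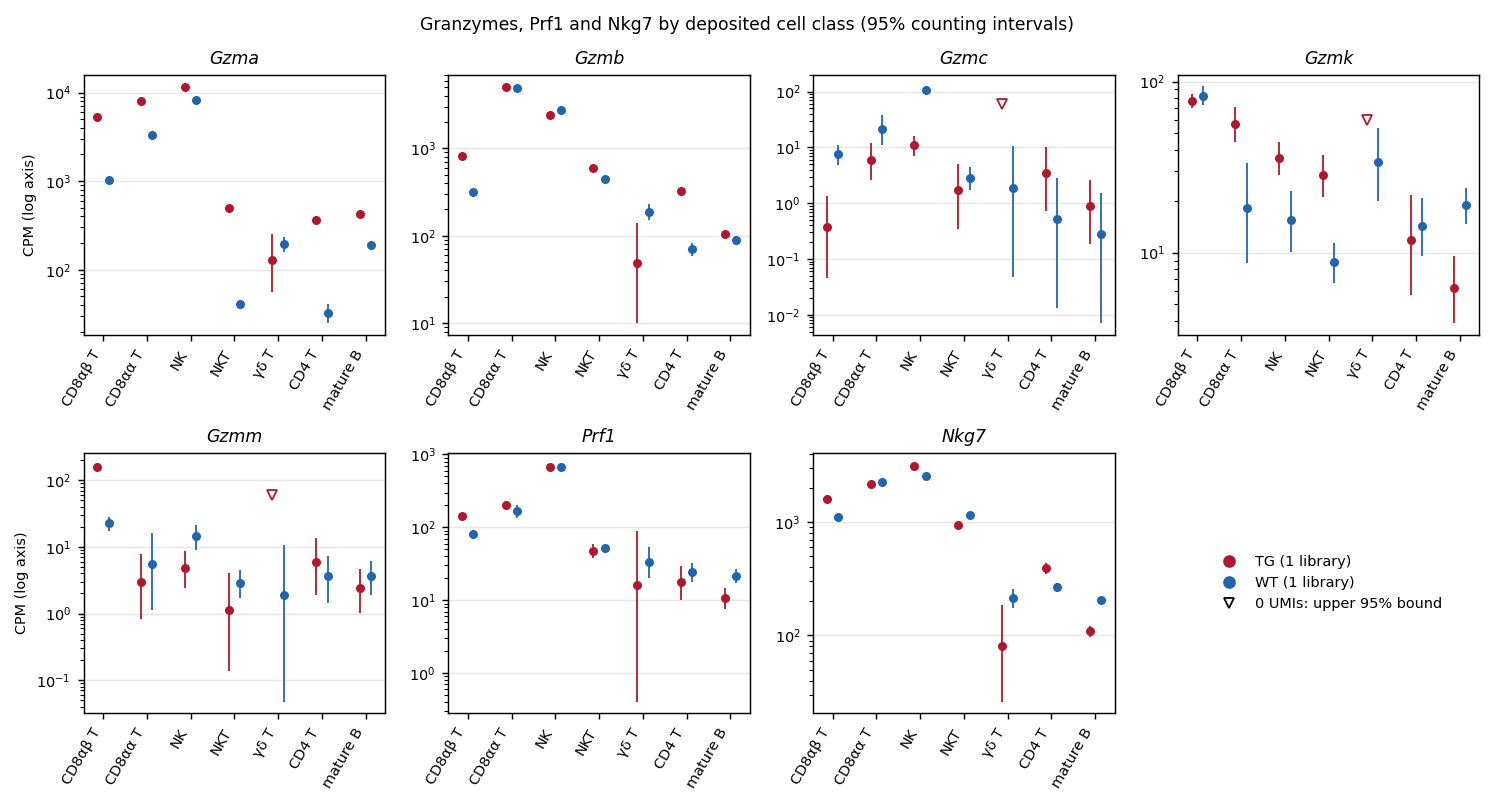
CPM of each member in each cell type on a log axis, TG (red) and WT (blue), with 95% exact Poisson intervals; open triangles are the upper bounds where no UMI was found. Gzma, Prf1 and Nkg7 are highest in NK-named cells, Gzmb in CD8αα T cells, Gzmk and Gzmm in CD8αβ T cells; mature B cells give the background.

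Granzyme B was higher in TG in CD8αβ T cells, and its interval held 0 in CD8αα T cells. In CD8αβ T cells Gzmb was 809 CPM in TG against 317 CPM in WT, 2.55-fold (log2 1.35, 1.25 to 1.45). In CD8αα T cells, where it was highest, it was 5017 and 4902 CPM, and the log2 ratio of 0.03 had an interval of -0.03 to 0.10. In NK-named cells it was 2390 and 2748 CPM. Cluster 8 alone gave 2059 and 1335 CPM, the other direction from the whole NK class. Without cluster 7 the CD8αβ log2 ratio was 0.88, below 2-fold.

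A Gzmb UMI was found in 35.8% of TG and 14.0% of WT CD8αβ T cells, beside 5.52% and 3.55% of mature B cells and 4.18% and 1.81% of cluster 1. It was found in 96.3% and 89.7% of CD8αα T cells. NKT cells held it in 25.3% and 24.3%, above B cells in both genotypes, with levels of 602 and 446 CPM. In CD4 T cells Gzmb was 324 and 69.9 CPM, 4.64-fold, with the highest level in cluster 21 at 1118 and 200 CPM, and 3 cells held 38.3% of the TG UMIs. Cluster 9 stood at 92.5 and 83.4 CPM, with an interval that held 0. In γδ T cells 3 TG UMIs stood against 100 in WT (log2 ratio -1.97, -4.27 to -0.38).

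The balance of granzyme A to B UMIs differed with genotype and cell type. CD8αβ T cells had 6.51 Gzma UMIs per Gzmb UMI in TG and 3.20 in WT, and CD8αα T cells had 1.61 and 0.677. In cluster 12 it was 8.70 and 2.44. Cluster 23 of the CD8αβ class went the other way, at 1.96 in TG (1.59 to 2.42) and 3.91 in WT (3.50 to 4.39), with 15 TG cells. In cluster 8 it was 6.65 and 7.42, with intervals that overlapped. The number depends on capture of each transcript, so only its differences between cells are read.

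Single cells were also sorted by which of the pair they held. In TG, 27.5% of CD8αβ T cells held both, 24.0% Gzma only and 8.33% Gzmb only. In WT these were 6.96%, 5.50% and 7.08%, and 80.5% held neither. CD8αα T cells were mostly positive for both in TG (78.3%), while WT cells split between both (45.9%) and Gzmb only (43.8%). At least 3 of the 7 members were found in 31.5% of TG and 11.0% of WT CD8αβ T cells, in 70.2% and 51.6% of CD8αα T cells and in 80.6% and 66.2% of NK-named cells. In cluster 8 alone they were found in 87.6% and 75.6%. The Gzma share in mature B cells, 15.6% in TG and 3.68% in WT, stands beside these shares, and its part in them was not tested.

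**Figure D3:**
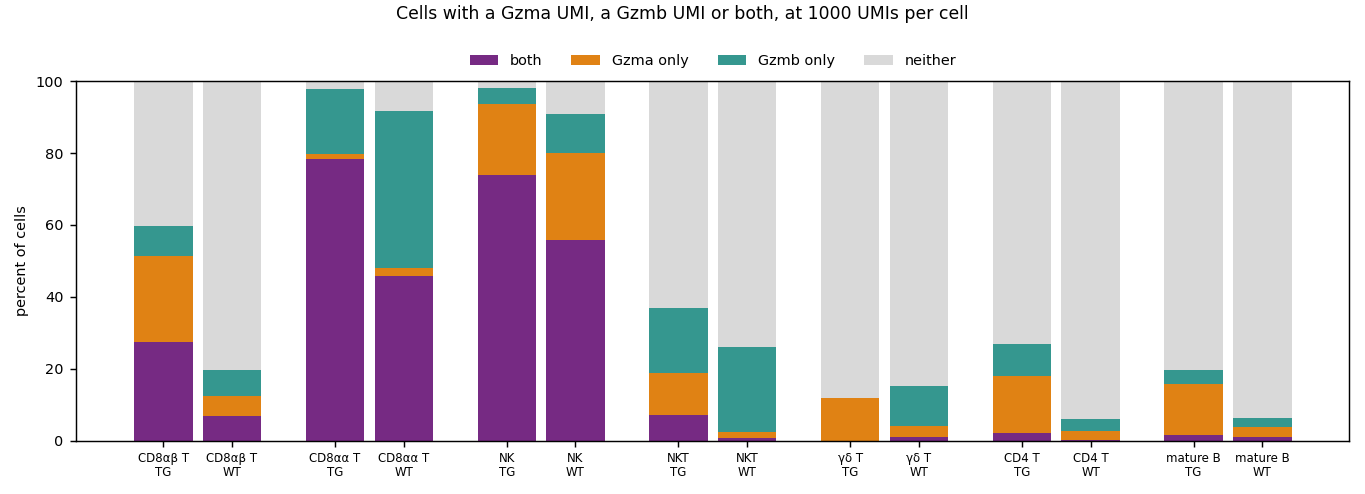
Share of cells (percent, at 1000 UMIs per cell) with a UMI of both Gzma and Gzmb, of Gzma only, of Gzmb only or of neither, by cell type and genotype. In CD8αβ T cells 80.5% held neither in WT and 40.2% in TG.

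Granzyme M was almost confined to CD8αβ T cells in TG, which held 96.0% of its UMIs (47.6% in WT). It stood there at 160 CPM (849 UMIs) in TG and 22.5 CPM (69 UMIs) in WT, 7.11-fold (log2 2.83, 2.48 to 3.21). The share of cells was 11.4% and 1.34%, beside 0.187% and 0.602% of mature B cells and 0.195% and 0.527% of cluster 1. Its clusters were not those of Gzma. Cluster 13 stood at 568 and 80.7 CPM, and cluster 4 at 152 and 1.91 CPM (110 and 2 UMIs), while clusters 7 and 12 were at 57.5 and 61.3 CPM in TG. In NK-named cells Gzmm was lower in TG, with 11 UMIs against 23 (log2 ratio -1.57, -2.76 to -0.48), and in cluster 8 it was 5.31 and 26.2 CPM. CD8αα T cells held 4 TG and 3 WT UMIs, too few for a ratio.

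Granzyme C was low outside cluster 3 of the NK-named cells, and over all cells it was higher in WT. Of its UMIs, 56.8% in TG and 74.8% in WT were in NK-named cells, at 11.0 and 107 CPM, 9.78-fold higher in WT (log2 -3.29, -3.96 to -2.68). Nearly all of it was in cluster 3, at 26.6 CPM in TG against 204 CPM in WT, the cluster in which TG cells carried Cd3 transcripts. Cluster 8 held 3 TG and 2 WT UMIs, below the limit of 10 for a ratio. Its log2 ratio of 0.95 had an interval of -2.18 to 4.53, and no direction is read from it. Among cells without a Cd3 UMI the class stood at 7.07 and 64.8 CPM. These levels rest on 3 TG and 54 WT UMIs, with 59.3% of the WT UMIs in 3 cells. In the whole NK-named class 3 cells held 68.0% of the TG and 22.7% of the WT UMIs. In CD8αβ T cells there were 2 UMIs in TG and 23 in WT (log2 -4.31, -7.44 to -2.30), and in CD8αα T cells 8 and 12. In WT, 3 cells held 56.5% of the CD8αβ and 75.0% of the CD8αα UMIs, so both ratios rest on few cells. NKT cells held 3 TG and 19 WT UMIs, with an interval that held 0 (-3.16 to 1.01). CD4 T cells and mature B cells each held 3 TG and 1 WT UMIs, too few for a ratio.

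For granzyme K the interval held 0 in the class that held most of it, but not in its dividing cluster. CD8αβ T cells held 62.4% of its UMIs in TG and 51.3% in WT, at 77.1 and 82.9 CPM (log2 -0.10, -0.33 to 0.13). Without cluster 7 the log2 ratio was -0.76. Cluster 7 held 230 of the 409 TG UMIs and stood at 95.1 and 32.0 CPM (log2 1.57, 1.02 to 2.17). Cluster 12 was at 136 and 182 CPM, and cluster 23 was the highest, at 659 and 557 CPM. Cluster 23 was 15 TG and 76 WT cells, so the class value also holds this difference in makeup. The class ratio without cluster 23 was not computed. In CD8αα T cells Gzmk was higher in TG, with 75 UMIs against 10 (56.6 and 18.2 CPM, log2 1.64, 0.68 to 2.76). In NK-named cells it was 35.9 and 15.6 CPM, but -0.78 on the log2 scale in cluster 8 and -1.03 in cells without a Cd3 UMI. NKT cells stood at 28.3 and 8.78 CPM, beside mature B cells at 6.25 and 18.9 CPM and cluster 1 at 4.15 and 11.3 CPM. Gzma, its neighbour on chromosome 13, had a far larger difference in CD8αβ T cells.

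Perforin differed by less than 2-fold between the genotypes in every killer type but γδ T, and by more in some clusters. Prf1 was highest in NK-named cells, at 671 CPM in TG against 683 CPM in WT (log2 -0.02, -0.14 to 0.09). Cluster 8 had 1364 and 1078 CPM, and cluster 11 had 608 and 1598 CPM. CD8αα T cells stood at 202 and 166 CPM, with an interval that held 0. CD8αβ T cells were at 143 and 81.6 CPM (log2 0.81, 0.61 to 1.03). Within that class cluster 7 stood at 174 and 56.5 CPM (log2 1.63, 1.21 to 2.07) and cluster 13 at 116 and 41.4 CPM (log2 1.48, 0.79 to 2.25), both past 2-fold, and without cluster 7 the class log2 ratio was 0.34. NKT cells, at 47.0 and 51.3 CPM, and CD4 T cells, at 17.8 and 24.1 CPM, were lower still, with intervals that held 0.

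Nkg7 was found in most killer cells of both genotypes, in 72.2% and 52.9% of CD8αβ, 86.1% and 88.7% of CD8αα and 93.9% and 87.6% of NK-named cells. Its level was 1607 and 1120 CPM in CD8αβ T cells (log2 0.52), 2157 and 2264 CPM in CD8αα T cells (log2 -0.07, -0.17 to 0.03) and 3148 and 2567 CPM in NK-named cells (log2 0.29). Cluster 8 alone gave 3766 and 3117 CPM (log2 0.27) and 98.0% and 92.0% of cells. In NKT cells it was lower in TG, at 952 and 1149 CPM. No killer type but γδ T passed 2-fold.

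**Figure D4:**
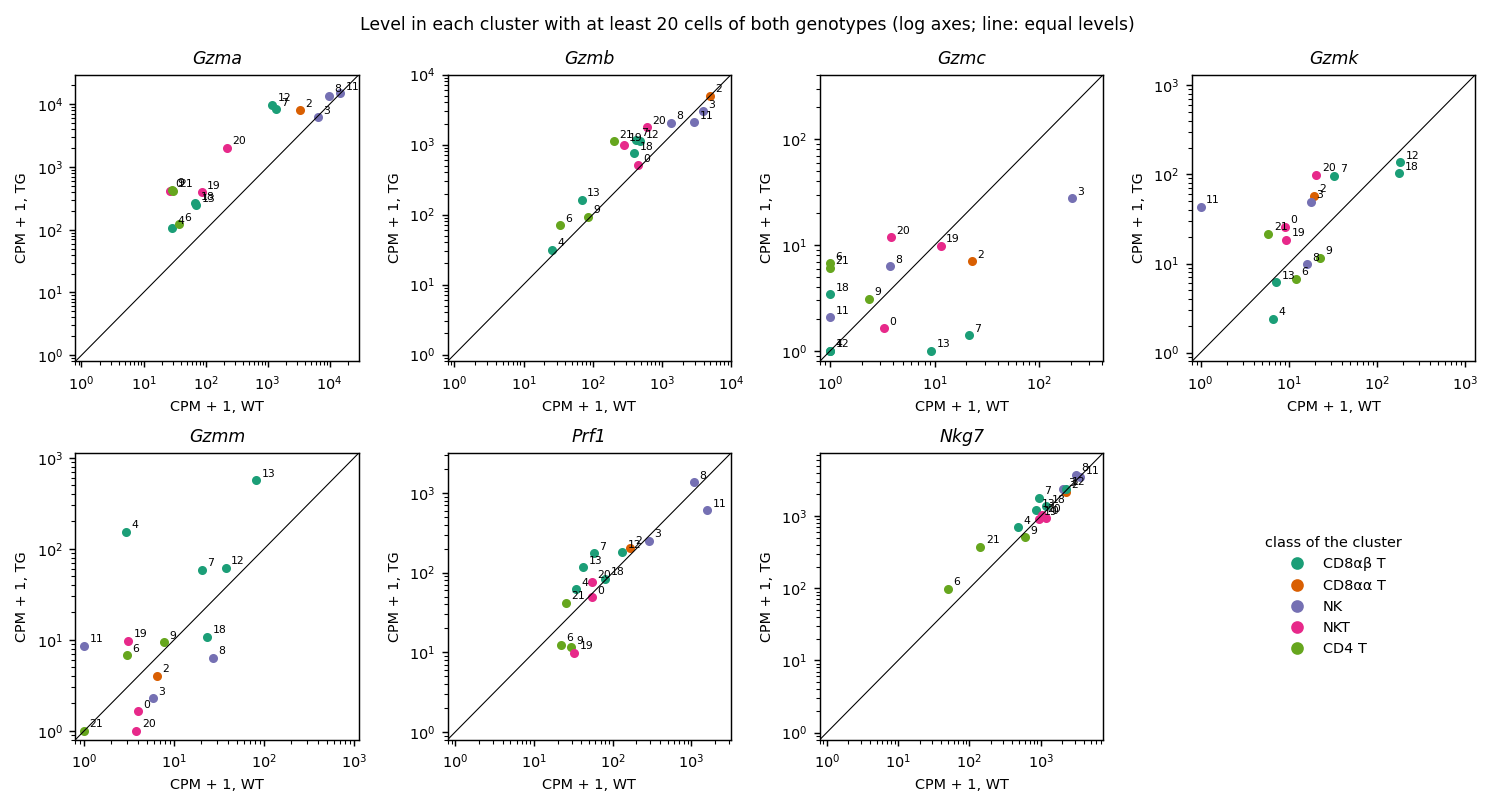
CPM + 1 of each member in TG (vertical log axis) against WT (horizontal log axis), 1 point per killer cluster with at least 20 cells of both genotypes, coloured by cell type; the line marks equal levels. Gzma is 6.04-fold and 8.18-fold higher in TG in clusters 7 and 12 and level in clusters 3 and 11. Clusters 0, 9 and 21 have larger ratios (16.3-fold, 15.3-fold and 14.2-fold) at TG levels of 416 to 431 CPM. Cluster 20, with 23 TG cells, has 9.29-fold at a TG level of 2032 CPM. Gzmm is highest in cluster 13 (568 and 80.7 CPM).

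Over the 15 killer clusters with at least 20 cells of both genotypes, the interval of Gzma lay above 0 in 13 and below 0 in none. For Gzmb it lay above 0 in 9 and below 0 in 2, for Nkg7 in 7 and 1 and for Prf1 in 4 and 1. Among the 7 non-killer clusters, which include cluster 17, it lay above 0 in 7 for Gzma and in 6 for Gzmb. For Gzmk 5 of the 11 killer clusters with at least 10 UMIs lay above 0 and none below. For Gzmm 3 lay above and 1 below of 6, and for Gzmc none above and 3 below of 4. The same counts over all genes were not made, so no excess of members is read from them. Clusters share 1 library per genotype and are not replicates.

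The antibody counts gave a readout that the choice of genes did not use. Values are medians of the centred log ratio on the natural log scale, and cells are not replicates. TG CD8αβ T cells with a Gzma UMI had CD62L, a lymph node homing receptor lost by effector cells, at 0.25, against 1.92 in cells without. In WT it was 0.48 against 2.87. CD49a, a collagen-binding integrin of tissue-resident cells, was 2.05 against 0.79 in TG and 0.73 against 0.39 in WT, and CD49b was 1.93 against 0.87 in TG. CD44, an activation marker, was 3.07 against 3.36 in TG and 2.85 against 2.34 in WT. CD69, found on resident and on activated cells, was 0.12 against 0.18 in TG and 0.33 against 0.30 in WT. In TG, CD122 (0.68 against 0.98) and CD8β (1.28 against 1.68) were also lower with a Gzma UMI, and NK1.1 was higher (0.94 against 0.75). CD43 was 3.04 against 2.33 in TG but 2.54 against 2.69 in WT. Cells with a Gzma UMI had fewer antibody UMIs, with medians of 1431 against 1753 in TG. The CD8αα T cells had CD49a at 3.19 with and 3.12 without a Gzma UMI in TG. For Gzmk in TG CD8αβ T cells (70 cells), CD49a was 0.82 against 1.06.

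Other genes of the pathway were read as fixed lists. Of 15 genes for granule loading, maturation and release, none passed 2-fold in CD8αβ, CD8αα, NK-named or NKT cells, where 9.88%, 12.0%, 11.3% and 10.1% of all genes did, with median log2 ratios of 0.31, 0.03, 0.00 and 0.06. In CD4 T cells 1 of 15 was higher, the cystatin Cst7 (log2 1.60), beside 7.53% of genes, and the median was 0.59. In γδ T cells 1 was higher and 3 were lower, with a median of -0.22, beside 29.4% of genes past 2-fold. Mature B cells had Rab27a (12.8 and 25.6 CPM) and Sytl2 (6.25 and 18.1 CPM), genes of granule transport, 2-fold lower in TG, beside 4.05% of genes. That class holds cluster 17, with its T cell transcripts, as 29 of 1068 TG and 155 of 1494 WT cells. Cluster 1 alone was not read for this list. The medians over all genes were 0.03, 0.01, -0.05, 0.05 and 0.10 in CD8αβ, CD8αα, NK-named, NKT and CD4 T cells.

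Of 6 serpin genes listed here as granzyme inhibitors, 1 was 2-fold higher in TG in CD8αβ T cells, where 5.55% of all genes were. Action on granzymes was not measured, and Serpina3f and Serpina3g in particular are not read as granzyme inhibitors. The word inhibitors elsewhere stands for this list. None of 6 passed 2-fold in NK-named cells, where 5.79% of genes were 2-fold lower, and the median was -0.61. It was -0.042 in cluster 3 alone and -0.24 in cluster 8 alone, where 2 of 6 were 2-fold lower, Serpina3g (182 and 445 CPM) and Serpina3f (5 and 27 UMIs, named after its values were seen), beside 6.59% of genes. In CD8αα T cells 1 of 5 was higher, beside 8.14% of genes, Serpina3g (474 and 233 CPM). In NKT cells 2 of 5 were higher, beside 5.76% of genes, Serpina3f (414 and 154 CPM) and Serpina3g (573 and 227 CPM). Serpina3g was also higher in mature B cells, at 383 and 106 CPM, as was Serpina3f, at 94.7 and 18.9 CPM. In γδ T cells 2 of 5 were higher and 1 was lower, beside 10.0% and 19.4% of genes, with Serpina3g at 386 and 58.4 CPM (24 and 31 UMIs). In CD4 T cells 2 of 5 were higher, beside 7.53% of genes, Serpina3g (log2 1.51) and Serpinb6b (log2 1.35).

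Of 9 killer transcription factors, 2 were 2-fold higher in TG CD8αβ T cells, where 5.55% of all genes were, and the median was 0.50. They were Tbx21, which encodes T-bet, at 209 and 60.7 CPM, and Zeb2, a transcriptional repressor found in effector cells, at 108 and 26.1 CPM. In CD8αα T cells 2 of 9 passed, beside 8.14% of genes, among them Prdm1, which encodes Blimp-1, at 59.6 and 29.1 CPM. In NK-named cells Zeb2 was higher in TG (240 and 118 CPM) and Eomes, a factor of conventional NK cells, was lower (139 and 333 CPM). In cluster 8 alone Zeb2 was 246 and 233 CPM and Eomes 391 and 692 CPM, both below 2-fold. In CD4 T cells 4 of 9 were higher, beside 7.53% of genes, namely Tbx21 at 88.8 and 34.4 CPM, Id2, an inhibitor of E proteins, at 1132 and 496 CPM, Prdm1 at 80.5 and 29.3 CPM and Bhlhe40 at 232 and 99.7 CPM. Of these genes 1 of 9 passed in NKT cells, Zeb2 (23 and 34 UMIs, log2 1.34), beside 5.76% of genes. In mature B cells Eomes was lower in TG, at 5.06 and 23.9 CPM, beside 4.05% of genes. Cluster 17 was a larger part of that class in WT. Its NK markers, Eomes among them, summed to 673 and 578 CPM, against 38.6 and 21.2 CPM in cluster 1. The lists were not read in cluster 1 alone. Neither death ligand, Fasl or Tnfsf10, passed 2-fold in CD8αβ, CD8αα, NK-named, NKT, CD4 T or mature B cells. Both had too few UMIs for a ratio in γδ T cells.

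The granzyme genes Gzmd, Gzme, Gzmf, Gzmg and Gzmn had no row in the filtered table. Of 13 neighbours and granule proteases of other leukocytes, 7 had a row, and over all cells 4 were 2-fold higher and 2 lower in TG, where 6.64% and 7.15% of all genes were. Mcpt8, a basophil protease, stood at 31.7 and 6.75 CPM, Cpa3, a carboxypeptidase of basophils and mast cells, at 10.9 and 2.30 CPM, Cma1, a chymase, at 21.6 and 9.50 CPM, Esm1 at 3.30 and 0.900 CPM, and Prtn3, a neutrophil protease, at 1.35 and 6.12 CPM. These levels were not adjusted for cell type shares, and basophils were 0.968% of TG and 0.220% of WT cells.

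The genes most like each member were found by Pearson's r over 50 profiles of cluster and genotype among 9776 genes, a description in which profiles share a library and its depth. Gzma was most like Klre1, a killer lectin-like receptor gene (r 0.868), and then Gzmb (0.843) and Klra9 (0.840). Gzmb was also most like Klre1 (0.909), then Klrb1f (0.883) and AW112010 (0.875). Prf1 and Nkg7 were most like Ccl5, a chemokine gene (0.883 and 0.948), and Nkg7 then like Ctsw (0.937), which encodes a cathepsin of killer cells, and AW112010 (0.924). Prf1 was then like Nkg7 (0.871) and Klre1 (0.864). Gzmm was most like Fgf13 (0.772), Gm4208 (0.684) and Crtam (0.644), and Gzmk like Aplp1 (0.701), Baiap3 (0.691) and Clstn1 (0.686). Gzmc had lower values, with Cd200r2 (0.664), X2010300C02Rik (0.632) and Klra5 (0.615).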

How the data were processed

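Liver CD45+ cells were profiled with the BD Rhapsody whole transcriptome assay and 49 antibodies, with 1 library per genotype (TG and WT). The authors ran the BD Rhapsody pipeline with STAR on mm10, joined the libraries in Seurat and deposited UMI counts for genes, antibody values on a natural log scale as centred log ratios, mitochondrial percent values per cell, cell type names and clusters. The cell filter is not given in the sources used here. The deposited natural log values were recomputed from antibody counts, and 0 differed by more than 1e-06. The deposited counts of the members were the same in the library tables and the filtered table. The study's own comparison columns were not used.

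Counts were summed per genotype and cell type or cluster and scaled to CPM, with exact Poisson intervals. Log2 ratios have exact conditional binomial intervals and shares have Clopper-Pearson intervals, all 95%. Ratios needed at least 10 UMIs over both genotypes, and lists used a pseudocount of 0.5 UMIs. Cells were thinned to 1000 UMIs for shares. Doublets were kept, and leaving them out was an alternative. Precision was set by depth, 18498477 UMIs in TG and 22216379 in WT. Genotypes were set from the deposited cell table, and cells without a genotype name entered no comparison. With 1 library per genotype there was no test. Positions came from GENCODE on GRCm38 and promoters from RefSeq on GRCm38.p6. The members and the gene lists were chosen with earlier results of these data known. All 7 members were named, list genes were named where they passed 2-fold with at least 50 UMIs, and the 3 most like genes were taken for each member. Scripts used Python 3.11.15, numpy 2.4.6, scipy 1.17.1, pandas 2.3.3, scanpy 1.11.5, matplotlib 3.10.9, R 4.3.3 and edgeR 4.0.16 (TMM scaling alone), and were checked on simulated data. Alternatives covered scaling, cell weighting, doublets, background subtraction, thinning, class definitions and thresholds.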

Additional observations from a re-analysis of the deposited data

Results flagged for a closer look

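Gzmb and Gzmm had opposite directions in different cell types under the same contrast, and these differences were not tested. The log2 ratio of Gzmb, TG over WT, was 1.35 in CD8αβ T cells and 2.22 in CD4 T cells but -1.97 in γδ T cells, where TG had 17 cells and 3 UMIs. The log2 ratio of Gzmm was 2.83 in CD8αβ T cells and -1.57 in NK-named cells, where it rested on 11 and 23 UMIs.

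Cells that the deposited table gives no genotype name were left out of the report, and some members stood above the WT level in them. In the library shared by TG and IFN-γ ARE-Del-/- mice these cells stood at 2868 CPM for Gzma, 1093 CPM for Gzmb, 67.7 CPM for Gzmk and 14.8 CPM for Gzmm. The TG cells of that library stood at 3726, 997, 35.4 and 47.7 CPM for these genes, so the unnamed cells were below them for Gzma and Gzmm. In the library shared by p40-/-IL-2Rα-/- and WT mice they stood at 322 CPM for Gzmk, 65.8 CPM for Gzmm, 195 CPM for Prf1 and 1902 CPM for Nkg7. The WT cells stood at 883 CPM for Gzma, 529 CPM for Gzmb, 22.3 CPM for Gzmk, 6.53 CPM for Gzmm, 88.7 CPM for Prf1 and 820 CPM for Nkg7. These levels hold differences in makeup. In the library shared with WT, 9635 of 16829 unnamed cells had both a Cd8a and a Cd3 UMI, against 987 of 7282 WT cells. The part of makeup in these levels was not tested.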

How the results depend on the processing

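With 1 library per genotype, no value has a replicate check. No paired analysis was possible because each genotype had 1 library and no result came from a test. Of the recomputed ratios, 306 stayed within the counting interval, 74 moved beyond it and 3 that were past 2-fold changed sign, all in NK-named cells. They were Gzmc in cluster 8 alone (0.95), Gzmk in cluster 8 alone (-0.78) and Gzmk without cells with a Cd3 UMI (-1.03). The Gzmc value rests on 3 and 2 UMIs, below the limit of 10. The Gzmk values rest on 5 and 11 and on 2 and 8 UMIs, and both cluster 8 intervals held 0. Among ratios below 2-fold there were 19 changes of sign, among them Gzmb (0.62) and Prf1 (0.34) in cluster 8 alone. The alternatives that subtract cluster 1 B cells, take cluster 3 alone or leave out Cd3 cells were chosen after seeing the data. The causes were not tested.

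The number of members past 2-fold was 2 in CD8αβ T cells without the dividing cluster, 1 in NK cluster 8 alone, 1 in NKT cells with the mature B level subtracted, 4 in CD4 T cells with the cluster 1 level subtracted, and in γδ T cells 2 without Scrublet doublets, without cells of both B and T lineage, thinned, or with a minimum of 50 UMIs, and 1 with the mature B level subtracted. With the mature B level subtracted, list medians were, for granule genes, 0.84 (CD8αβ), 0.29 (NKT) and 1.46 (CD4); for inhibitors 0.88 (CD8αβ) and 1.62 (CD4); and for transcription factors 0.93 (CD8αβ) and 1.86 (CD4). As with the members, list genes below the subtracted level in a genotype are then left out. Medians after subtraction can therefore rest on part of a list, and no shift from the full-list medians is read from them. The mature B level also holds the cluster of that class with T cell transcripts. In CD8αβ T cells, subtracting cluster 1 gave 0.68 for granule genes and 0.71 for inhibitors, with the same limit. The CD8αβ class without the dividing cluster gave 0.25 for inhibitors and 0.69 for transcription factors. Equal weight per cell in CD8αβ T cells gave 0.71 for transcription factors. Inhibitors in NK cluster 3 alone gave -0.042. TMM scaling moved all ratios by -0.19 in γδ T and -0.12 in CD4 T cells. With clusters in place of cell types, the log2 ratio at WT shares was 1.09 for Gzma and 0.18 for Prf1, and at TG shares that of Prf1 was -0.18, the other direction.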

Other observations

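Among cells without a genotype name in the library shared with WT, 9635 had both a Cd8a and a Cd3 UMI. In them Gzmk stood at 369 CPM, Gzmm at 96.4 CPM and Gzma at 1506 CPM. The 987 WT cells of the same gate stood at 76.8, 17.7 and 1299 CPM. Unnamed cells with a Cd4 and a Cd3 UMI in that library had Gzmk at 549 CPM, against 21.3 CPM in WT. In the library shared with TG, 1697 unnamed cells with Cd8a and Cd3 UMIs stood at 5294 CPM for Gzma, beside 5442 CPM in TG. These cells carry no genotype in the deposited table, and their values are given without comparison of genotypes.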
